A study of Mus musculus with 16 samples.

Results

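The 9 genes of thyroid hormone entry, conversion and reception were followed in cells of the mouse coronal suture, where the frontal bone of the skull meets the parietal bone: Thra and Thrb (receptors), Dio2 and Dio3 (deiodinases), Slc16a10, Slc7a5, Slc7a8 and Slco1c1 (transporters) and Crym (a cytosolic binding protein). They were taken by name from the expression table, each through its brightest probe set that the platform annotation ties to 1 gene symbol, and made up 9 of the 22180 genes so represented. Of the 9, 8 passed the filter on low values (a mean over all arrays of 3.905 or more, the 40th percentile over probe sets with a single symbol) and were tested with 13453 genes in all, and Slco1c1 did not pass. The series held 16 Affymetrix whole-transcript arrays, and all values below are log2 expression values after RMA.

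The cells came from C57BL6 mice, either Twist1+/-, which carry a single intact copy of the gene for the mesenchymal transcription factor Twist1, or wild type. They were grown in DMEM with thyroxine, at -6 on the log10 scale of mol per liter, or in control DMEM, and RNA was taken after 7 or 3 days. Both media and both genotypes shared the same base medium with fetal bovine serum, which itself can carry thyroid hormone. The 8 groups held 2 arrays each, 1 from female and 1 from male cells. The 4 arrays of each genotype and sex were taken as 1 culture, which makes 4 cultures. This is an assumption, since the labels count 8 samples as independent and do not say how these, the cultures and the days relate. The mice of 2 litters were sorted by sex and genotype before culture, and the number of animals behind each array was not stated. On that assumption genotype was compared over 2 cultures against 2, and p-values below measure the spread between arrays, which may be technical in part, and not the spread between animals.

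Thyroxine (T4), the main product of the thyroid gland, acts largely after conversion to triiodothyronine (T3). Membrane transporters carry both hormones into cells, the type 2 deiodinase encoded by Dio2 turns T4 into T3, and the type 3 deiodinase encoded by Dio3 inactivates both. T3 binds the nuclear receptors encoded by Thra and Thrb, which sit on DNA with retinoid X receptors and exchange corepressors for coactivators when the hormone binds. In the skeleton the receptor made from Thra is known as the main form, and excess thyroid hormone in early life is a known cause of premature suture fusion.

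The 3 genes of the set that passed the test between 7 and 3 days in at least 1 comparison were Slc7a8, Slc16a10 and Dio2. Each was called higher at 7 days in Twist1+/- cells, and the 250 bases before their annotated starts are shown for that reason. The sequences are from RefSeq on GRCm38.p6, all 3 on the minus strand, at chr14:54781887-54782136 for Slc7a8, chr10:40142255-40142504 for Slc16a10 and chr12:90739039-90739288 for Dio2. Capitals mark matches to 6 motifs that were searched on both strands: the nuclear receptor half-site AGGTCA, the PU.1 core GAGGAA, the AP-1 site TGACTCA, the E-box CACGTG, the cAMP response element core TGACGT and the TATA box TATAAA.
Slc7a8: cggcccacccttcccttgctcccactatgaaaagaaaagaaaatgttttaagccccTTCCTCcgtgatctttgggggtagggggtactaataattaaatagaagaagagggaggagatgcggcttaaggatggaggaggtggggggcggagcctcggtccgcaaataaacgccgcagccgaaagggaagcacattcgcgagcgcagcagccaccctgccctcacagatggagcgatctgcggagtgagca
Slc16a10: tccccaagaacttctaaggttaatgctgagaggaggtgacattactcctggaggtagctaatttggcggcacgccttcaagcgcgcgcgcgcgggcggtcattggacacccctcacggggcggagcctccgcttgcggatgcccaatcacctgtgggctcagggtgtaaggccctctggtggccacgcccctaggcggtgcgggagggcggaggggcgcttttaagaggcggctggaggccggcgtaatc
Dio2: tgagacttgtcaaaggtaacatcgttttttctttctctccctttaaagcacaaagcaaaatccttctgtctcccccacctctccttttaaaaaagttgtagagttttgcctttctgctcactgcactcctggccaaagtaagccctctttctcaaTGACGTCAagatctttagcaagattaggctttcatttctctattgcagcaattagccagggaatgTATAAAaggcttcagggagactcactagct

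The Slc7a8 window held a single match, GAGGAA on the opposite strand, starting 194 bases before the start. The Slc16a10 window held no match to the 6 motifs, which says only that these letters are not in it. The Dio2 window held 2 overlapping matches to TGACGT, 1 on each strand, 95 and 93 bases before the start, and TATAAA 30 bases before it. Of 32851 RefSeq promoter windows of the same length, 23.3% held GAGGAA, 6.47% held TGACGT, 12.4% held TATAAA, 14% held AGGTCA, 6.02% held CACGTG and 4.46% held TGACTCA. The table of promoters gave windows for 6 of the 9 genes.

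Before the comparisons, 2 facts of the arrays bear on every value. Of the 12 suture mesenchyme and osteogenic genes on the array, 11 passed the filter (the exception was Sp7). The mean over the 12 was 8.02 to 9.02 across arrays. All 5 muscle and all 5 neural and glial genes on the array passed too, with list means of 4.70 to 5.23 and 4.60 to 5.15. Of other listed genes on the array, 3 of 6 endothelial, 3 of 5 cartilage, 2 of 4 adipocyte and 0 of 3 keratinocyte genes passed. Since 2 lists of other tissues passed in full, passing the filter is by itself no evidence of cell type. All 15 genes of a macrophage and osteoclast list passed as well, and their mean over the list ran from 7.63 to 9.53. On the 4 wild-type male arrays that mean was 9.20 to 9.53 at both days. On the other 12 arrays it was 9.21 to 9.53 at 7 days and 7.63 to 8.52 at 3 days. The mesenchyme list was lower on the wild-type male arrays (8.02 to 8.17) than on the other 12 (8.61 to 9.02), so this culture stood apart at both days. In bulk samples fewer cells of a type and less RNA per cell cannot be told apart.

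Of the 9 genes, Slc7a5, Slc7a8, Slc16a10 and Thra stood clearest above genes whose RNA should be absent. Over 1390 olfactory and vomeronasal receptor genes the median was 2.02, with 5th and 95th percentiles of 1.51 and 3.79, and 60 of them (4.32%) passed the filter. Slc7a5 and Slc7a8 averaged 9.93 and 9.45, and only 0.0719% of the receptor genes were as high. Slc16a10 averaged 6.07 and Thra 5.95, with 0.144% and 0.216% of the receptor genes at or above these values. Thrb (4.91), Crym (4.83), Dio2 (4.82) and Dio3 (4.22) were closer to that background, with 0.863%, 0.935%, 1.01% and 2.88% of the receptor genes at or above them. Passing the filter does not by itself show expression of these 4, because muscle and neural genes such as Myog (5.22), Rbfox3 (5.30) and Ckm (4.25) gave signal of the same size. Of the same lists, Acta1 (6.97) and Tubb3 (6.85) had higher means than Slc16a10 and Thra. Whether Acta1 and Tubb3 were themselves expressed in these cells was not tested, so they are no measure of background. Slc16a10 and Thra were thus above nearly all of the receptor genes, but level alone does not settle their expression. Slco1c1, whose product carries thyroxine across brain capillaries, averaged 3.04, and 13.1% of the receptor genes were at or above it. Probe sets differ in how brightly they hybridise, so these means give no order of abundance between genes.

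**Figure D1:**
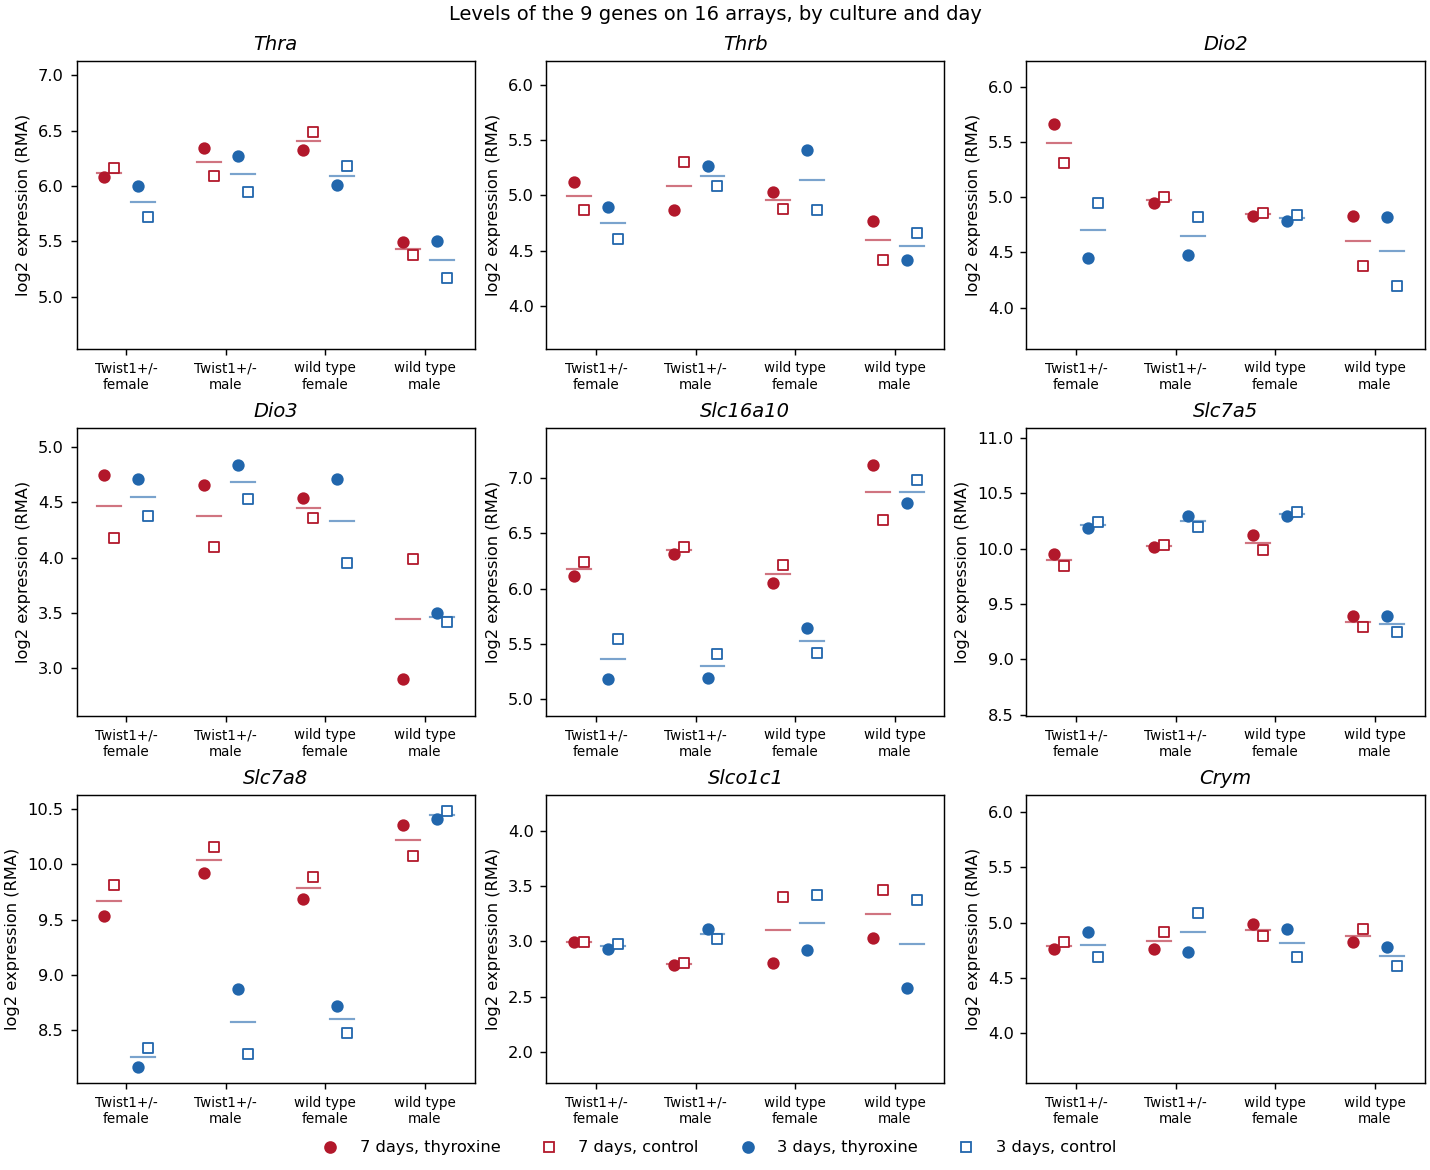
Log2 expression (RMA) of each of the 9 genes on every array, by culture on the horizontal axis, with 7 days in red left of 3 days in blue, thyroxine as filled circles, control as open squares and bars at the mean of both media. Slc7a8 and Slc16a10 lay higher at 7 than at 3 days in the Twist1+/- female, Twist1+/- male and wild-type female cultures, and the wild-type male culture was high at both days.

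Both receptor genes were lowest in the wild-type male culture. Thra, the receptor gene best known for its role in bone, averaged 5.99 ± 0.19 in Twist1+/- female cells, 6.16 ± 0.18 in Twist1+/- male cells, 6.25 ± 0.21 in wild-type female cells and 5.39 ± 0.15 in wild-type male cells (SD, n = 4 arrays each). The 4 wild-type male arrays (5.17 to 5.50) lay below the other 12 (5.72 to 6.49), while the other 3 cultures overlapped. Thrb averaged 4.88 in Twist1+/- female, 5.13 in Twist1+/- male, 5.05 in wild-type female and 4.57 in wild-type male cells, and its wild-type male arrays (4.42 to 4.77) overlapped those of Twist1+/- female cells (4.61 to 5.12) but lay below those of Twist1+/- male (4.87 to 5.30) and wild-type female cells (4.87 to 5.41).

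Dio3 was also lowest in the wild-type male culture, at 3.42, 3.50, 3.99 and 2.90 on its 4 arrays against 3.95 to 4.84 on the other 12, and the ranges met at a single array. Culture means were 4.51 in Twist1+/- female, 4.53 in Twist1+/- male, 4.39 in wild-type female and 3.45 in wild-type male cells. Dio2 averaged 5.09 in Twist1+/- female, 4.81 in Twist1+/- male, 4.83 in wild-type female and 4.56 in wild-type male cells, with overlapping arrays.

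The transporters split by direction in that culture. Slc16a10, which encodes a transporter of aromatic amino acids that also carries T3 and T4, averaged 6.87 in wild-type male cells, against 5.77 to 5.83 in the other 3 cultures. Slc7a8, the light chain of the amino acid exchanger LAT2, averaged 10.33 there, against 8.96 to 9.31. Slc7a5, the light chain of LAT1, which pairs with the same heavy chain as LAT2, averaged 9.33 ± 0.07 there, against 10.06 ± 0.19 in Twist1+/- female, 10.14 ± 0.14 in Twist1+/- male and 10.19 ± 0.16 in wild-type female cells. Its 4 wild-type male arrays (9.25 to 9.39) did not overlap the other 12 (9.84 to 10.33). Crym, which encodes mu-crystallin, a T3-binding protein of the cytosol, had the most even culture means of the 9, at 4.79 to 4.88.

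The first comparison asked whether thyroxine changed the genes that handle or receive it. None of them passed the test. Over all 8 pairs of a thyroxine and a control array of the same culture and day, 0 of the 8 tested genes were called by limma with Benjamini-Hochberg adjustment, against 13 of 13453 genes in all (0.0966%), and 0 of the 8 had an unadjusted p under 0.05. Differences ran from -0.05 for Slc16a10 to 0.21 for Dio3, with SE of 0.05 to 0.13 and adjusted p of 0.846 to 0.995. The 95% intervals reached at most 0.49 (Dio3), so differences up to that size were not excluded. In the same pairs the hormone-induced gene Klf9 was higher in 8 of 8 by 0.30 to 0.86, and Hr in 8 of 8 by 0.14 to 0.62. Klf9 was called (adjusted p = 0.00458, limma) and Hr was not (adjusted p = 0.385). With no variance trend or with no block, 0 genes were called over all pairs, so the Klf9 call was lost too.

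Thra had a lowest, median and highest value of 5.49, 6.05 and 6.34 with thyroxine and 5.17, 6.02 and 6.49 in control medium, and 5 of 8 pairs were higher with thyroxine. Thrb was at 4.42, 4.97 and 5.41 with thyroxine and at 4.42, 4.87 and 5.30 in control medium, and was higher in 6 of 8 pairs. Both receptors overlapped fully between media, with fitted differences of 0.11 ± 0.08 for Thra and 0.14 ± 0.11 for Thrb (SE, 8 pairs).

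Dio3, a gene known in other tissues to be induced by T3, was the member with the most uniform sign. In Twist1+/- cells it had 4.75 and 4.66 with thyroxine at 7 days, against 4.18 and 4.10 in control medium (female and male), and 4.71 and 4.84 with thyroxine at 3 days, against 4.38 and 4.53. All 4 Twist1+/- thyroxine arrays were above all 4 control arrays, with differences of 0.31 to 0.57. The fitted difference of 0.44 ± 0.18 (SE) had an unadjusted p of 0.0311 and did not pass after limma's adjustment over all genes (adjusted p = 0.446), where 27 of 13453 genes were called (0.201%) and 0 of the 8 members, of which Dio3 alone had an unadjusted p under 0.05. The count of 27 rested on single pairs, at 232 without the Twist1+/- female 3-day pair and 0 without the Twist1+/- female 7-day pair, and it was also 0 with no variance trend or with no block.

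In wild-type cells Dio3 had 4.54 with thyroxine against 4.36 in control medium at 7 days and 4.71 against 3.95 at 3 days in the female culture, and 2.90 against 3.99 and 3.50 against 3.42 in the male culture. Its pair differences ran from -1.09 to 0.76 there, with a fitted difference of -0.02 (adjusted p = 0.996, limma), which was -0.34 without the wild-type female 7-day pair and 0.30 without the wild-type male 7-day pair. The wild-type comparison called 2 of 13453 genes (0.0149%) and 0 of the 8 members, and 0 members had an unadjusted p under 0.05. The effect in Twist1+/- minus that in wild-type cells was 0.46 ± 0.26 and was not called (adjusted p = 0.594, limma; 95% interval -0.10 to 1.02). Without the same pairs that value was 0.78 and 0.14, and it was not called either way. That comparison called 8 of 13453 genes (0.0595%) and 0 of the 8 members, again with 0 at an unadjusted p under 0.05.

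Slc16a10 was lower with thyroxine in 4 of 4 Twist1+/- pairs, by 0.07 to 0.36, and higher in 2 of 4 wild-type pairs, and the fitted Twist1+/- difference of -0.20 ± 0.12 did not pass (adjusted p = 0.598, limma). Slc7a5 had the narrowest range of pair differences of the 8, from -0.05 to 0.14. Slc7a8 ranged from -0.28 to 0.58, Dio2 from -0.50 to 0.62 and Crym from -0.36 to 0.25, each with both signs in both genotypes.

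Slco1c1, below the filter, was lower with thyroxine in 4 of 4 wild-type pairs. It had 2.80 and 3.03 with thyroxine at 7 days, against 3.40 and 3.46 in control medium (female and male), and 2.92 and 2.58 at 3 days, against 3.42 and 3.37. In Twist1+/- cells its pairs differed by -0.05 to 0.09. With no filter the wild-type difference of -0.58 had an adjusted p of 0.641 and the difference between genotypes, 0.59, an adjusted p of 0.490 (limma), so neither was called, and all its values lay within the range of the receptor genes named above.

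Split by time, 0 of the 8 members were called at 7 days, where 21 of 13453 genes were (0.156%), and 0 at 3 days, where 0 genes were called (0%) and 410 had an unadjusted p under 0.05. The thyroxine effect at 7 minus that at 3 days called 1 gene (0.00743%) and 0 members, whose differences ran from -0.32 for Dio3 to 0.25 for Dio2. No member had an unadjusted p under 0.05 in these 3 comparisons.

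**Figure D2:**
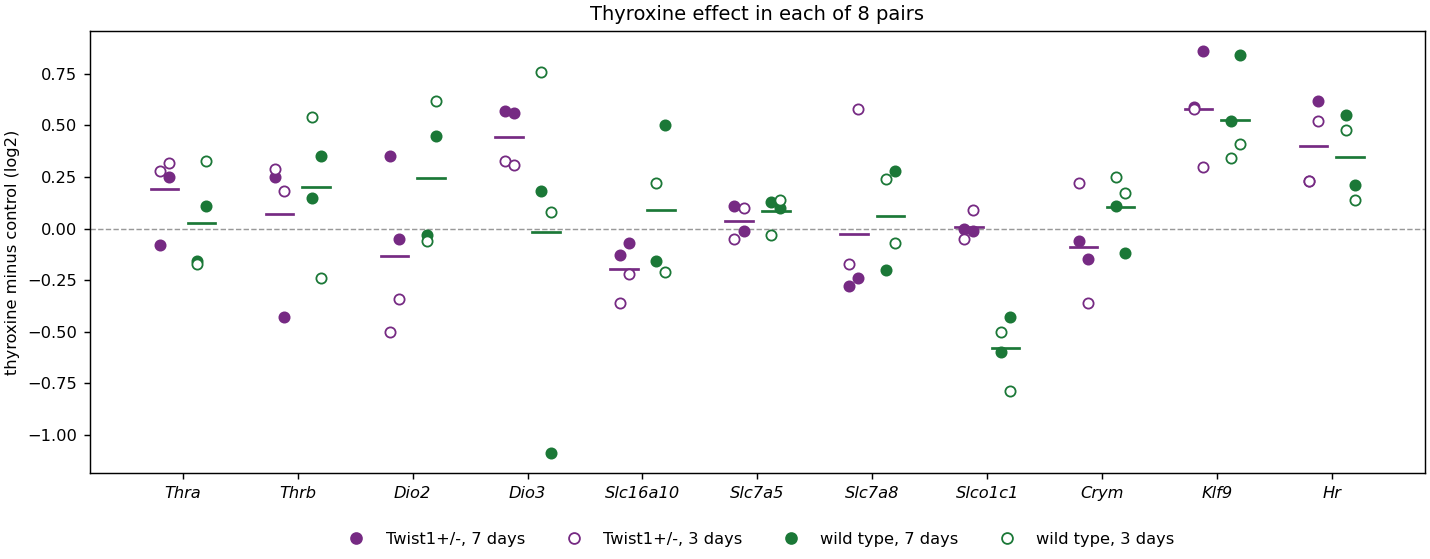
Thyroxine minus control (log2) in each of the 8 pairs for the 9 genes and for Klf9 and Hr, with Twist1+/- pairs in purple left of wild-type pairs in green, 7 days filled, 3 days open and bars at the mean of 4 pairs. Klf9 and Hr lay above 0 in 8 of 8 pairs, Dio3 lay between 0.31 and 0.57 in Twist1+/- pairs, and a single wild-type male pair of Dio3 lay at -1.09.

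Time in culture gave the only calls. Over all cultures, Slc7a8 and Slc16a10 rose between 3 and 7 days, so 2 of the 8 tested genes were called and 6 were not, where limma called 2493 of 13453 genes (18.5%), 9.84% higher and 8.69% lower. Slc7a8 was 0.96 ± 0.18 higher at 7 days (SE, adjusted p = 0.00361) and Slc16a10 was 0.61 ± 0.14 higher (adjusted p = 0.0111). Dio2 was 0.31 ± 0.10 higher with an adjusted p of 0.0553, Slc7a5 was 0.20 ± 0.11 lower with an adjusted p of 0.256, and Thra was 0.20 ± 0.13 higher with an adjusted p of 0.351. Thrb, Dio3 and Crym differed by 0.00, -0.07 and 0.06.

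The level of Slc7a8 on Twist1+/- arrays at 7 days was 9.53 and 9.92 with thyroxine and 9.81 and 10.16 in control medium (female and male), against 8.17, 8.87, 8.34 and 8.29 at 3 days in the same order. Wild-type female cells had 9.69 with thyroxine and 9.89 in control medium at 7 days, against 8.72 and 8.48 at 3 days. In wild-type male cells it was 10.36 and 10.08 at 7 days, against 10.41 and 10.48 at 3 days. The days did not overlap in the other 3 cultures, while the wild-type male arrays were high at both.

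Slc16a10 followed the same arrays. On Twist1+/- arrays at 7 days it had 6.11 and 6.31 with thyroxine and 6.24 and 6.38 in control medium, against 5.18, 5.19, 5.54 and 5.41 at 3 days. Wild-type female cells had 6.05 and 6.21 at 7 days, against 5.64 and 5.42 at 3 days, and wild-type male cells had 7.12 and 6.62 at 7 days, against 6.77 and 6.98 at 3 days. Outside the wild-type male culture the change was positive in 6 of 6 comparisons of the same culture and medium, by 0.41 to 1.12 for Slc16a10 and by 0.97 to 1.87 for Slc7a8.

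In Twist1+/- cells alone, 3 of the 8 genes were called higher at 7 days and 0 lower, where 1969 of 13453 genes were called (14.6%), 9.24% higher and 5.4% lower. Slc7a8 rose by 1.44 ± 0.26 (adjusted p = 0.00336), Slc16a10 by 0.93 ± 0.20 (adjusted p = 0.00978) and Dio2 by 0.56 ± 0.15 (adjusted p = 0.0236, all limma). The Slc16a10 call was lost without the Twist1+/- female 7-day control array (0.88, adjusted p = 0.0561) or the Twist1+/- female 7-day thyroxine array (0.89, adjusted p = 0.0552), and that for Slc7a8 held without each of the 16 arrays in turn.

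Dio2 rested on fewer values. On Twist1+/- arrays at 7 days its brightest probe set had 5.66 and 4.95 with thyroxine and 5.31 and 5.0 in control medium, against 4.45, 4.48, 4.95 and 4.82 at 3 days (female and male), so the days met at 4.95. The female culture was 0.79 higher at 7 days and the male culture 0.33 higher. The call was lost without any 1 of 6 of the 8 Twist1+/- arrays, with differences of 0.42 to 0.60. A second Dio2 probe set, with a mean of 3.11, disagreed: it averaged 2.89 ± 0.41 at 7 days and 3.04 ± 0.36 at 3 days in Twist1+/- cells (SD, n = 4 arrays), a difference of -0.16, and the mean of both probe sets differed by 0.20 and was not called (adjusted p = 0.284, limma).

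In wild-type cells 0 of the 8 genes were called, where 15 of 13453 genes were (0.111%) and 2212 had an unadjusted p under 0.05. No member had one. The count of 15 moved to 531 without the wild-type male 7-day thyroxine array, to 4 without the wild-type female 3-day thyroxine array and to 513 with the culture as a fixed block. Slc7a8 was 0.48 ± 0.26 higher at 7 days (adjusted p = 0.390, 95% interval -0.08 to 1.05) and Slc16a10 was 0.30 ± 0.20 higher (adjusted p = 0.505). By culture, Slc7a8 changed by 1.19 in wild-type female cells and by -0.23 in wild-type male cells, and Slc16a10 by 0.60 and -0.01. Without the wild-type male culture, the female culture alone gave calls for both, 2 of the 8 genes, where 12.1% of all genes were called.

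The change with time in Twist1+/- minus that in wild-type cells was 0.96 ± 0.37 for Slc7a8, 0.63 ± 0.29 for Slc16a10 and 0.49 ± 0.21 for Dio2, with adjusted p of 0.559, 0.570 and 0.562 (limma). None of the 8 members and 0 of 13453 genes (0%) were called, although 3 members and 1174 genes had an unadjusted p under 0.05. The difference between genotypes was therefore not shown for any member. Without the wild-type male culture it was 0.25 for Slc7a8 and 0.33 for Slc16a10.

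Slc7a5 went the other way in the 3 cultures outside the wild-type male one. It had 9.84 to 10.12 at 7 days on these 6 arrays, against 10.19 to 10.33 at 3 days, and the days did not overlap. By culture it changed by -0.32 in Twist1+/- female, -0.23 in Twist1+/- male, -0.26 in wild-type female and 0.02 in wild-type male cells. Without the wild-type male culture the difference of -0.27 was called (adjusted p = 0.00861, limma), with 26.1% of all genes called in that fit, and with the culture as a fixed block the difference of -0.20 was called (adjusted p = 0.0221), with 23.6% of all genes called.

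**Figure D3:**
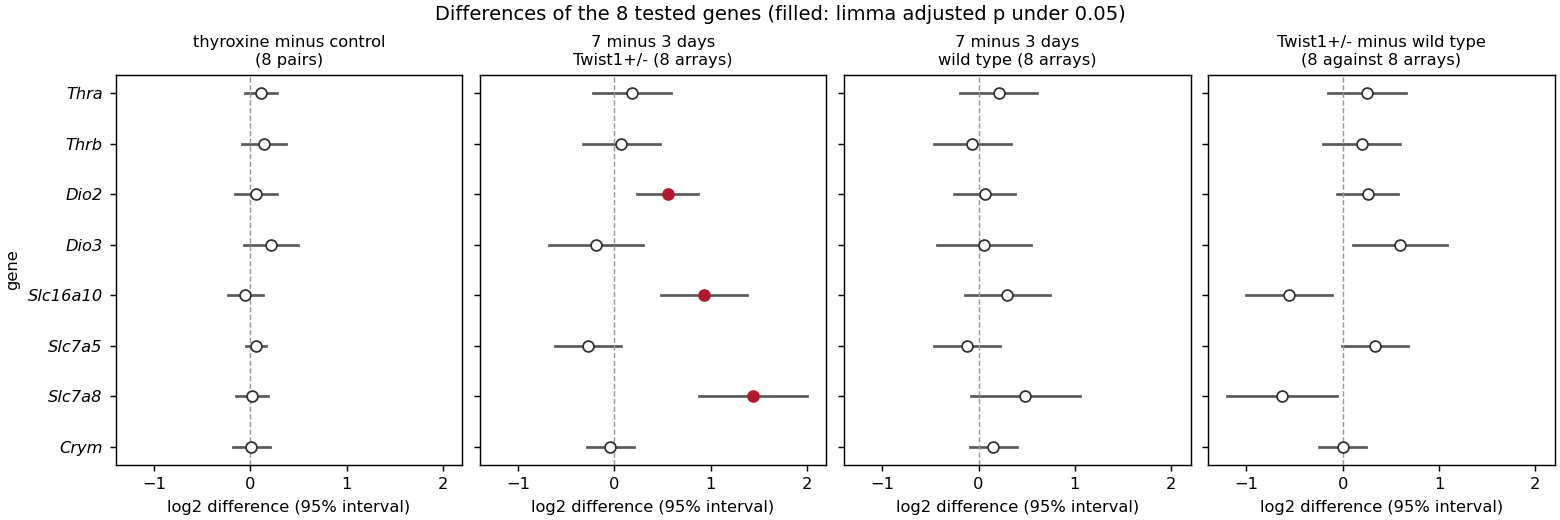
Fitted log2 differences with 95% intervals (horizontal lines) of the 8 tested genes for thyroxine minus control, 7 minus 3 days in Twist1+/- and in wild-type cells, and Twist1+/- minus wild type, with filled points where limma's adjusted p was under 0.05. Filled points are Slc7a8 at 1.44, Slc16a10 at 0.93 and Dio2 at 0.56, all for time in Twist1+/- cells.

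Most genes of the macrophage and osteoclast list moved with the same arrays as Slc7a8 and Slc16a10. Over all cultures 13 of the 15 genes of that list were called higher at 7 days and 0 lower, with a median difference of 1.26 over the list, where 9.84% of all genes were called higher. The fitted difference was above 0 for only 13 of the 15 over all cultures and in wild-type cells, and for 14 in Twist1+/- cells. In Twist1+/- cells 13 of 15 were called higher with a median of 1.62, where 9.24% of all genes were. In wild-type cells 0 of 15 were called with a median of 0.91, where 0.111% of all genes were called. The list mean outside the wild-type male culture was 9.44 ± 0.13 at 7 days and 8.08 ± 0.32 at 3 days (SD, n = 6 arrays each). The least bright gene of the list, Aif1, ran from 3.75 to 6.04, and Csf1r, the receptor that macrophages need to survive, from 8.43 to 10.46. Acp5, an osteoclast gene of the list, averaged 5.39 and ran from 4.79 to 5.79. Its mean was of the size of those of Myog (5.22) and Rbfox3 (5.30), so its expression was not shown. The part of this list in the values of both transporters was not tested.

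**Figure D4:**
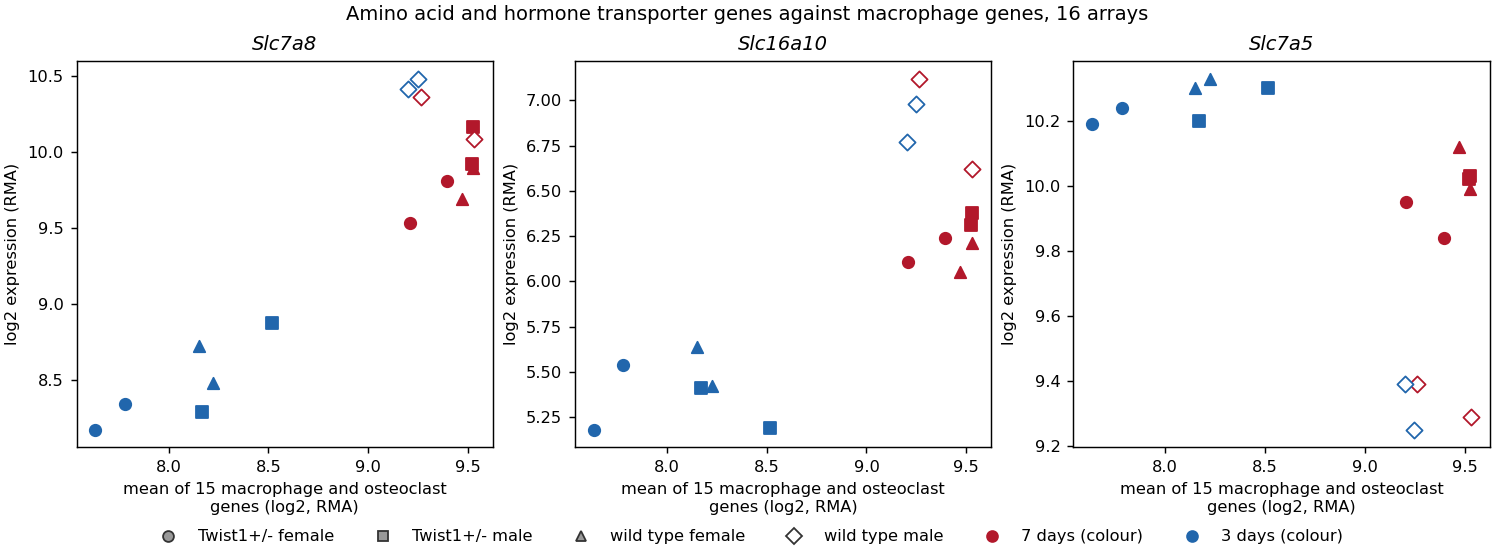
Log2 expression of Slc7a8, Slc16a10 and Slc7a5 on each array (vertical axes) against the mean of 15 macrophage and osteoclast genes on the same array (horizontal axes), with 7 days in red, 3 days in blue, marker shapes for cultures and open diamonds for wild-type male arrays. Slc7a8 and Slc16a10 were high where that mean was above 9, and Slc7a5 was at 9.25 to 9.39 on the wild-type male arrays, below the other arrays with a like mean.

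For Slc7a5 the list did not order the cultures. The wild-type male arrays and the 7-day arrays of the other cultures had list means of 9.20 to 9.53 and 9.21 to 9.53, but Slc7a5 was at 9.25 to 9.39 on these wild-type male arrays and at 9.84 to 10.12 on those 7-day arrays. The mesenchyme list was at 8.02 to 8.17 and 8.61 to 8.91 on the same arrays.

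The last comparison asked whether the genotypes differed. No member was called in Twist1+/- minus wild-type cells over both days, at 3 days or at 7 days, and neither was any of the 13453 genes (0% each), although 619, 699 and 989 genes and 3, 3 and 1 members had an unadjusted p under 0.05. The counts over all genes were not stable. In control medium alone 7 genes were called at 7 days, all lower in Twist1+/- cells. Genes were also called without the wild-type male culture, where all wild-type cells were female and each wild-type group held 1 array. The genotype result over all genes therefore depended on that culture. No member was called in control medium alone. Over both days Dio3 was 0.60 ± 0.22 higher (SE, unadjusted p = 0.0208), Slc7a8 0.63 ± 0.26 lower (unadjusted p = 0.0329) and Slc16a10 0.56 ± 0.20 lower (unadjusted p = 0.0183) in Twist1+/- cells, with adjusted p of 0.937 each (limma). Slc7a5 was 0.34 ± 0.16 higher, Thra and Dio2 0.26 higher each, Thrb 0.20 higher and Crym equal at 4.83 in both genotypes.

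Apart from Dio2 and Crym, these differences were larger in size between the male than between the female cultures. Between male cultures, Twist1+/- minus wild type was 1.08 for Dio3, -1.02 for Slc7a8, -1.05 for Slc16a10, 0.81 for Slc7a5 and 0.78 for Thra. Between female cultures the same differences were 0.12, -0.23, -0.06, -0.13 and -0.26, and the sign of Slc7a5 and Thra was the opposite one. At the same day and medium, Slc7a8 was lower in Twist1+/- cells in 4 of 4 female and 3 of 4 male comparisons. Dio2 was close in both through its brightest probe set, at 0.27 between female and 0.26 between male cultures, but the mean of both its probe sets differed by -0.02 over both days. Slco1c1, below the filter, was as close in both, at -0.16 and -0.18. With 1 culture for each genotype and sex, genotype and culture cannot be told apart.

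At 7 days Dio2 was the member with the smallest unadjusted p between genotypes, at 5.23 ± 0.33 in Twist1+/- and 4.73 ± 0.23 in wild-type cells (SD, n = 4 arrays each), a difference of 0.51 ± 0.18 (SE, unadjusted p = 0.0151, adjusted p = 0.641, limma). That was the brightest probe set, and the second disagreed, at 2.89 ± 0.41 in Twist1+/- and 3.31 ± 0.25 in wild-type cells, so the mean of both differed by 0.04 (adjusted p = 0.963, limma). At 3 days the brightest averaged 4.68 in Twist1+/- and 4.66 in wild-type cells. Slc7a8 averaged 8.42 ± 0.31 in Twist1+/- and 9.52 ± 1.07 in wild-type cells at 3 days, a difference of -1.11 ± 0.32 (adjusted p = 0.909, limma), and the wild-type SD came from 8.72 and 8.48 in the female against 10.41 and 10.48 in the male culture.

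Around the 9 genes, 62 further genes of the pathway were listed, of which 58 were on the array and 49 were tested. None was called by limma in any of the 7 thyroxine or 3 genotype comparisons, where 0 to 8 of the 49 had an unadjusted p under 0.05. Over all cultures 13 of the 49 were called higher at 7 days and 4 lower, where 9.84% and 8.69% of all genes were, with a median difference of 0.06, against -0.02 over all 13453 genes. In Twist1+/- cells 13 were called higher and 2 lower, where 9.24% and 5.4% of all genes were, and in wild-type cells 0, where 0.111% were. The counts by role that follow are over all cultures and stand against the same 9.84% higher and 8.69% lower.

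Among the corepressors, coactivators and receptor partners, 4 of 12 tested genes rose over all cultures and 0 fell. These were the coactivators Ncoa3 (0.47 ± 0.08) and Ncoa1 (0.36 ± 0.08) and the corepressor complex members Tbl1xr1 (0.45 ± 0.09) and Gps2 (0.22 ± 0.07). Adjusted p ran from 0.00276 for Ncoa3 to 0.0370 for Gps2 (limma).

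Deiodinases are selenoproteins, and 2 of 14 tested genes of deiodination and selenoprotein synthesis rose and 1 fell. Selenop, which encodes the selenium carrier selenoprotein P, had a mean of 6.86 ± 0.15 at 7 days and 5.17 ± 0.38 at 3 days in Twist1+/- cells and of 6.97 ± 0.12 and 5.92 ± 0.54 in wild-type cells (SD, n = 4 arrays each), and rose by 1.37 ± 0.14 over all cultures. Unlike Slc7a8, it was also higher at 7 days in the wild-type male culture, at 6.89 against 6.38 at 3 days. Sephs2, a selenophosphate synthetase, rose by 0.29 ± 0.07, and Wsb1, which encodes a ubiquitin ligase subunit that targets the type 2 deiodinase, fell by 0.31 ± 0.09.

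Of the other transport, binding and conjugation genes, 7 were tested. Slco4a1, an organic anion transporter that carries thyroid hormone, rose by 0.90 ± 0.16, with 7.12 and 6.74 at 7 days against 5.60 and 5.83 at 3 days in Twist1+/- female and male cells, 6.77 against 5.69 in wild-type female cells and 7.01 against 6.92 in wild-type male cells. Itgav, a subunit of the integrin that binds thyroxine at the cell surface, fell by 0.38 ± 0.09.

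Of the 16 amino acid and monocarboxylate transporter relatives, 6 rose and 2 fell. Slc43a2, a leucine transporter, rose by 0.94 ± 0.12, Slc7a7 by 0.67 ± 0.16, Slc16a6 by 0.61 ± 0.10 and Slc16a7 by 0.56 ± 0.14, while the cationic amino acid transporter Slc7a1 fell by 0.37 ± 0.08 and Slc7a6 by 0.23 ± 0.06. Slc43a2 had 7.25 and 7.37 at 7 days against 6.03 and 6.29 at 3 days in Twist1+/- female and male cells, 7.38 against 6.26 in wild-type female cells and 7.56 against 7.24 in wild-type male cells. Like Slc7a8, it was high on the wild-type male arrays at 3 days.

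The genes most like each member over the 16 arrays were found by Pearson's r, as a description, since the arrays of a culture and day share cells and are not independent. Slc7a8 was most like Rapgef5 (0.985), Pik3r5 (0.984), which encodes a regulatory subunit of a phosphoinositide kinase of leukocytes, and Il10rb (0.971), a subunit of the interleukin 10 receptor. Slc16a10 was most like Aup1 (0.962), Tpd52 (0.957) and Zfand2a (0.955). Slc7a5 was most like Nfix (0.978), Fam13c (0.975) and the collagen gene Col1a1 (0.971). Thra was most like Gpm6b (0.953) and the matrix genes Ogn (0.948) and Fbln1 (0.940), and Dio3 like Dbt (0.923), Nupr1 (0.895) and Crabp2 (0.892).

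Several matches were weaker on the 12 arrays outside the wild-type male culture, where r was 0.803 for Thra and Gpm6b, 0.627 for Dio3 and Dbt, 0.815 for Slc7a5 and Col1a1 and 0.694 for Thrb and Sirt1, while for Slc7a8 and Rapgef5 it was 0.982. Over 16 arrays 3 of the members near background had lower r with their closest genes than the other tested members had, Thrb with Sirt1 (0.850), Mzt2 (0.825) and Mlkl (0.822), Dio2 with Epb41l5 (0.805), Tmem127 (0.791) and Gyg (0.783), and Crym with Wnt4 (0.792), Rhd (0.786) and Cacna1b (0.785). Among the members, Slc7a8 and Slc16a10 had r of 0.943 over 16 arrays and 0.935 over the 12 outside the wild-type male culture. Slc7a5 ran against both, at -0.894 with Slc16a10 and -0.803 with Slc7a8 over 16 arrays, and at -0.831 and -0.783 over the 12.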

How the data were processed

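RNA of suture cells was measured on 16 arrays. The deposited log2 values were made by the authors by RMA (Affymetrix Expression Console), which the submitters' processing notes name. RMA equalises the arrays, so a shift of all genes cannot be seen. The genome build was not given in the sources used here. Per the labels' protocols, a condition had 3 wells and an array received 100 ng of labelled total RNA. The platform annotation gave 1 symbol for 23521 of 41345 probe sets, several for 1814 and none for 16010. Entrez identifiers matched 23328 to current symbols, and 0 symbols changed.

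The test was limma's (version 3.58.1, R 4.3.3, lmFit, eBayes with trend, two-sided, adjusted p under 0.05 over 13453 genes). Thyroxine was fitted with the pair as a fixed block, since per the labels a plate held both media of a genotype, sex and day. That both days of a genotype and sex share a culture was assumed. Day and genotype were fitted with 8 group means and sex, with culture as a random block (within-culture correlation 0.202). Residual degrees of freedom were 4 and 7 and prior ones 9.30 and 5.11. The number of arrays limits the precision. Both fits were run on simulated data. Simulated culture effects were drawn for each gene separately, with less spread than the residuals. A culture that stands apart over many genes, as the wild-type male one did, was not covered. Alternatives covered the filter, trend, probe set choice, centring, blocks, control medium alone and left-out arrays, pairs and cultures. The named genes were all members, the 3 genes most like each (uncharacterised gene models and small RNAs left out), pathway genes called (up to 4 per list and direction), and Klf9 and Hr. The members and lists were chosen with earlier results of these data known. Some genes of the lists are not analysed here.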

Additional observations from a re-analysis of the deposited data

Results flagged for a closer look

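Within the sets of pair differences, 3 of 27 held a pair far from the others by Dixon's test, which chance gives in about 5% of sets. The thyroxine effect on Dio3 in the wild-type male pair at 7 days was -1.09, against 0.08 to 0.76 in the other 7 pairs. The effect on Thrb in the Twist1+/- male pair at 7 days was -0.43, against 0.18 to 0.29 in the other 3 Twist1+/- pairs. The effect on Slc7a8 in the Twist1+/- male pair at 3 days was 0.58, against -0.28 to -0.17 in the other 3 Twist1+/- pairs.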

How the results depend on the processing

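No reported difference of a member changed direction together with a call under any alternative run. Few members were called, and differences that were not called did change direction. Over both days, Twist1+/- minus wild type ran from -0.26 to 0.33 for Thra, from -0.13 to 0.41 for Slc7a5 and from -0.17 to 0.30 for Thrb. For time in Twist1+/- cells, the members called numbered 1 to 3 when each array was left out, with 1 without the Twist1+/- female 7-day control array or the Twist1+/- female 7-day thyroxine array. For time in wild-type cells, 2 members were called without the wild-type male culture, against 0 otherwise. Over all cultures Dio2 was called in 4 of 16 left-out settings, at 0.36 to 0.38. The Slc7a8 and Slc16a10 calls over all cultures held in 16 of 16, with adjusted p up to 0.0156 and 0.0401. The replicate labels carry no number, so the pair and the culture served as the block. Without the replicate block, 0 members were called for thyroxine, 2 for time over all cultures and 3 for time in Twist1+/- cells, the same counts as with it. Leaving out the Twist1+/- 7-day pairs could not give values for comparisons that need those arrays. With 1 culture for each genotype and sex, the spread between animals was not measured, and members near background have compressed differences.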
